A study of Mus musculus with 6 samples.

Results

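The 7 genes described here encode the chains of the collagens that build and coat the thin fibrils of cartilage: Col2a1, Col9a1, Col9a2, Col9a3, Col11a1, Col11a2 and Col27a1. They were taken by name from the 41388 genes counted in each sample. All 7 passed the filter on low counts, which left 14533 genes for the test. RNA-seq was performed on primary chondrocytes of 21-day-old male mice on a B6/129 background, isolated from femoral head cartilage and cultured for 2 days in medium with 10% fetal bovine serum. The 3 Postn-/- samples came from periostin knockout mice, homozygous for the Postn tm1Jmol allele, and the 3 wt samples from wild-type mice. The comparison asks how the chondrocyte transcripts of the genotypes differ at baseline, before any joint injury. The methods describe as many mice as samples in each genotype, and the labels do not tie a sample to a mouse.

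Collagen II is the main fibril collagen of hyaline cartilage and is made of 3 copies of the chain encoded by Col2a1. Collagen XI is a fibril collagen that copolymerizes with collagen II and limits fibril width, and collagen IX is a fibril-associated collagen that decorates the fibril surface. Collagen XXVII, the product of Col27a1, is a fibril-type collagen of developing cartilage. In chondrocytes, SOX9 with SOX5 and SOX6 is the known activator of several of these genes.

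Total counts per sample ranged from 20587640 to 26572260, so that 3 counts corresponded to 0.115 to 0.144 CPM, the count scaled to the library total. Levels below are CPM after TMM scaling, which adjusts for library size and composition. Levels compared between genes are RPKM, the same value per kilobase of exon. The targeted gene Postn measured 4.66, 4.27 and 5.67 CPM in Postn-/- cells and 10.1, 10.3 and 6.90 CPM in wt cells. The groups did not overlap, and Postn reads, summed over the gene as a whole, were still counted in Postn-/- cells. Each log2 fold change divides Postn-/- by wt and comes from the quasi-likelihood test of edgeR, adjusted over all tested genes by the Benjamini-Hochberg method. For Postn it was −0.91 (SE 0.22, where SE is the standard error, unadjusted p = 0.00362, adjusted p = 0.717), and −0.82 without wt replicate 1. The sample wt replicate 1 stood apart from the other samples: its score on the first principal component, which held 31.9% of the variance, was 47.7, and the other 5 samples lay between −17.4 and −0.0175. Values without this sample are therefore given beside the differences between the genotypes. The chondrocyte identity of the cells was checked with 10 marker genes other than the collagens. All 10 passed the filter, and their summed level was 17356 to 26161 CPM in Postn-/- and 17964 to 24404 CPM in wt.

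Among the 7 genes, the levels of Col9a3 and Col2a1 were higher in each Postn-/- sample than in any wt sample, by 2.00-fold (95% interval 1.21 to 3.30) and 1.60-fold (1.14 to 2.24). Col11a2 and Col9a2 had higher means in Postn-/- with overlapping samples, by 1.43-fold (1.02 to 2.01) and 1.46-fold (0.966 to 2.22). Col9a1, Col11a1 and Col27a1 were within the spread of the samples, at 1.14-fold (0.721 to 1.79), 0.907-fold (0.661 to 1.24) and 1.05-fold (0.720 to 1.55). None of the 7 genes passed the adjusted threshold of 0.05, a limit that 2 of the 14533 tested genes met (0.0138%). With the unadjusted p at or below 0.05, 3 of the 7 were called (Col2a1, Col9a3 and Col11a2), all higher in Postn-/-. Across all genes 6.3% were called at this p, and 3.95% were called as higher in Postn-/-. Non-overlapping samples were found for 2 of the 7 genes, against 13.6% of all genes in either direction and 7.03% with the higher level in Postn-/-. The median log2 fold change of the 7 genes was 0.52, beside 0.0042 over all tested genes, and 6 of the 7 were above 0, as were 50.8% of all genes. Without wt replicate 1, Col2a1 and Col9a3 remained as the 2 genes called, against 5.44% of all genes called and 3.49% called as higher. The median of the 7 genes was then 0.33, and 4 of the 7 were above 0. Without wt replicate 2 it was 0.79, and all 7 were above 0. In bulk samples, fewer cells of a type and less RNA per cell cannot be told apart.

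**Figure D1:**
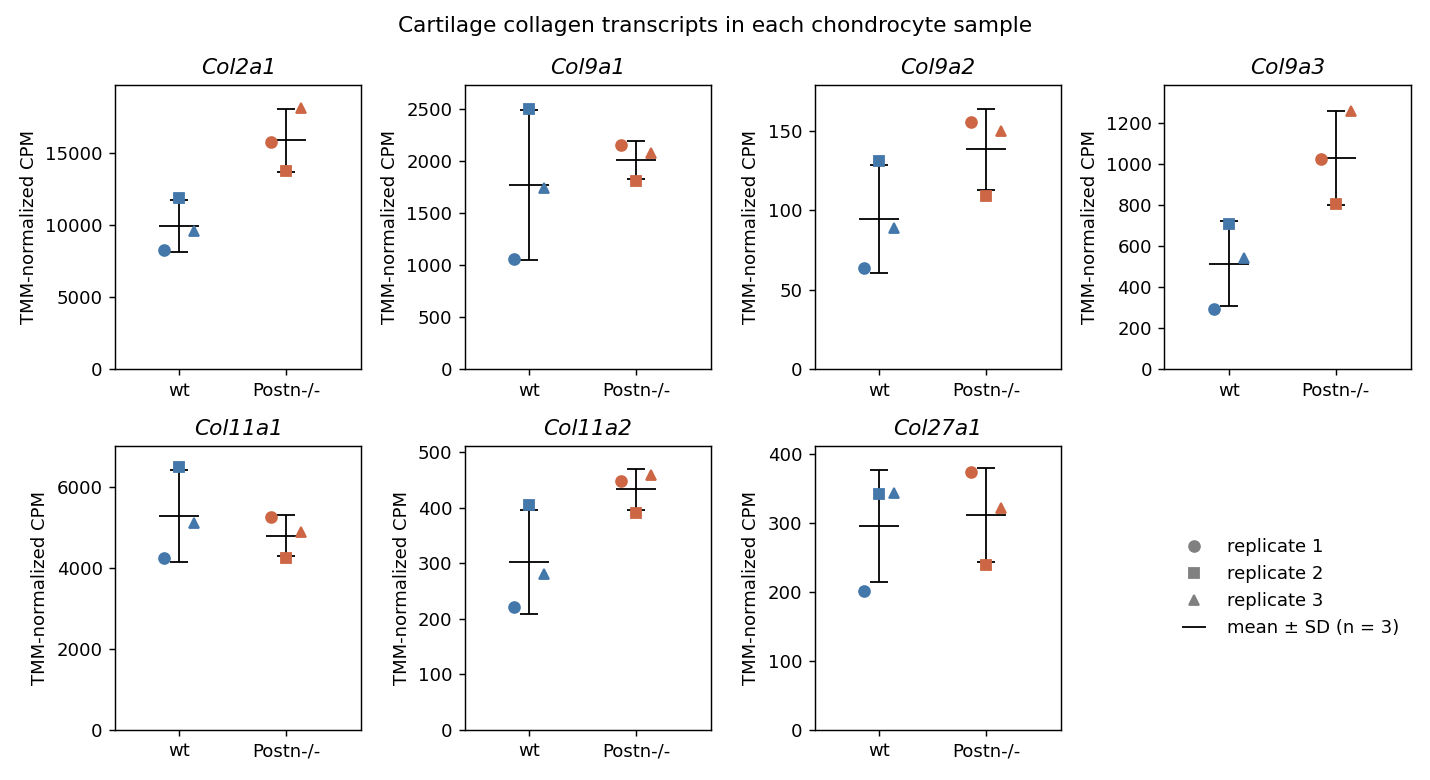
Level of each of the 7 collagen transcripts in each sample, in TMM-normalized CPM on axes that start at 0. Points are single samples with the replicate number as the symbol, lines are the mean and SD of 3 samples, and the wt and Postn-/- points are apart only for Col2a1 and Col9a3.

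In length-scaled terms the order of the genes was the same in all 6 samples. Col2a1 led with a mean of 2146 RPKM over the 6 samples and ranked 13 of 14533 genes. Col11a1 followed at 522 RPKM, Col9a1 at 373 and Col9a3 at 200. The lowest were Col11a2 at 53.8 RPKM, Col9a2 at 37.6 and Col27a1 at 23.3, which ranked 2441. Among wt samples, the ranges of neighbours in this order overlapped for Col11a1 and Col9a1, for Col11a2 and Col9a2 and for Col9a2 and Col27a1, although within each sample the order held. In the Postn-/- samples no neighbours overlapped. The order depends on the exon length used, which is the same in every sample, with 13022 bases for Col27a1 and 3095 for Col9a2. In CPM, Col27a1 was above Col9a2, with means of 312 against 138 in Postn-/- and 296 against 94.4 in wt. The 7 genes took 2.43%, 2.15% and 2.77% of all counts in the Postn-/- samples and 1.41%, 2.21% and 1.79% in the wt samples, which overlap through Postn-/- replicate 2 and wt replicate 2.

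Col2a1 (ENSMUSG00000022483) lies on the minus strand of chromosome 15 (chr15:97975602-98004695, GRCm38). Its level was 15767, 13696 and 18081 CPM in Postn-/- and 8271, 11867 and 9567 CPM in wt, or 15848 ± 2193 against 9902 ± 1821 (mean ± SD, n = 3 each). The lowest Postn-/- sample was above the highest wt sample. Col2a1 alone made up 1.52%, 1.39% and 1.84% of the counts in Postn-/- and 0.810%, 1.17% and 0.967% in wt. The log2 fold change was 0.68 (SE 0.21, unadjusted p = 0.0125, adjusted p = 0.717 by edgeR). It was 0.56 without wt replicate 1 (unadjusted p = 0.0422, adjusted p = 0.833 by edgeR), and without wt replicate 3 the unadjusted p was 0.0522. None of the 50-base words of the Col2a1 transcripts occurred in transcripts of another gene.

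Collagen XI contains the chains encoded by Col11a1 and Col11a2, completed by a chain from Col2a1. The levels of both genes are given here with the sequence before their starts, because the ratio between them was lower in every Postn-/- sample. Col11a1 (ENSMUSG00000027966) is on the plus strand of chromosome 3 (chr3:114030540-114220718). Its level was 5259, 4243 and 4872 CPM in Postn-/- and 4245, 6498 and 5106 CPM in wt. The highest value was in wt replicate 2, and the lowest values, nearly equal, were in Postn-/- replicate 2 and wt replicate 1. The log2 fold change was −0.14 (95% interval −0.60 to 0.32, unadjusted p = 0.496, adjusted p = 0.861 by edgeR), and −0.28 without wt replicate 1. Col11a1 changed sign, to 0.036, without wt replicate 2.

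Col11a2 (ENSMUSG00000024330) is on the plus strand of chromosome 17 (chr17:34039437-34066685). Its level was 449, 391 and 459 CPM in Postn-/- and 221, 405 and 280 CPM in wt. The groups overlapped in 1 pair, Postn-/- replicate 2 and wt replicate 2. The log2 fold change was 0.52 (SE 0.21, unadjusted p = 0.0406, adjusted p = 0.717 by edgeR). It was 0.34 with an unadjusted p of 0.0995 by edgeR without wt replicate 1, and 0.79 with an unadjusted p of 0.00136 by edgeR without wt replicate 2. The unadjusted p of Col11a2 was also above 0.05 without Postn-/- replicate 1 (0.0914), Postn-/- replicate 3 (0.1001) and wt replicate 3 (0.118), all by edgeR.

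The 250 bases before the RefSeq start of each gene (GRCm38.p6, plus strand, 5′ to 3′) are shown with matches in capitals, on either strand, to GGGCGG, the letters of a GC box, and TATAAA, the letters of a TATA box:
Col11a1, chr3:114030290-114030539: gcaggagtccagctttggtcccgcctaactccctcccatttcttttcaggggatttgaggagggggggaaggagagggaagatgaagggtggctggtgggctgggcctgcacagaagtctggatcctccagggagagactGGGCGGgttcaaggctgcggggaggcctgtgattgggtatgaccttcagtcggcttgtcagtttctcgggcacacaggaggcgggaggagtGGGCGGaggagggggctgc
Col11a2, chr17:34038888-34039137: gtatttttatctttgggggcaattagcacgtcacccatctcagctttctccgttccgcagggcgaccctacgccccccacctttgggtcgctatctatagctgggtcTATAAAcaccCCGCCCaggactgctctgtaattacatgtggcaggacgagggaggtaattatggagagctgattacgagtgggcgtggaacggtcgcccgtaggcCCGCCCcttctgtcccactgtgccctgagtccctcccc
Both windows held 2 matches to GGGCGG, at 110 and 19 bases before the start of Col11a1 and at 133 and 38 bases before that of Col11a2. A match to TATAAA was found only before Col11a2, at 143 bases. Of 32817 promoter windows of this length, 32.7% held GGGCGG and 12.4% held TATAAA. The RefSeq start of Col11a2 lies 299 bases upstream of the first base counted for this gene. RefSeq windows were matched for 5 of the 7 genes (6 windows, since Col9a1 has 2 starts), and none was used for Col2a1 and Col9a3. The SOX-type letters ACAAAG and ACAATG, searched on both strands, were in none of the 6 windows and in 16.5% and 10.7% of all windows. These matches describe letters in a short window and say nothing about binding.

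Collagen IX is a heterotrimer of the chains encoded by Col9a1, Col9a2 and Col9a3. Col9a3 (ENSMUSG00000027570, chr2:180597790-180622189, plus strand) measured 1023, 803 and 1260 CPM in Postn-/- and 293, 707 and 543 CPM in wt. All Postn-/- samples were above all wt samples, with a gap between 707 CPM in wt replicate 2 and 803 CPM in Postn-/- replicate 2. Its log2 fold change of 1.00 was the largest of the 7 genes in these samples (standard error 0.31, unadjusted p = 0.0128, adjusted p = 0.717 by edgeR). It was 0.72 without wt replicate 1 (unadjusted p = 0.0138, adjusted p = 0.833 by edgeR). Exons of Col9a3 overlap those of Tcfl5 on the opposite strand over 234 bases, 6.07% of the Col9a3 exon length. Whether counting used strand is not given in the sources used here. Tcfl5 itself had 69 to 105 counts in each sample.

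Col9a2 (ENSMUSG00000028626, chr4:121039385-121055322, plus strand) measured 156, 109 and 150 CPM in Postn-/- and 63.2, 131 and 89.0 CPM in wt. The groups overlapped through wt replicate 2 and Postn-/- replicate 2, and the log2 fold change was 0.55 (95% interval −0.05 to 1.15, unadjusted p = 0.0674, adjusted p = 0.717 by edgeR). For Col9a2 it was 0.33 (unadjusted p = 0.169 by edgeR) without wt replicate 1, 0.86 (0.00465) without wt replicate 2 and 0.69 (0.0364) without Postn-/- replicate 2. Col9a1 (ENSMUSG00000026147, chr1:24177610-24252684, plus strand) measured 2153, 1805 and 2075 CPM in Postn-/- and 1061, 2507 and 1746 CPM in wt. All 3 Postn-/- samples lay inside the wt range, and the log2 fold change of 0.18 (95% interval −0.47 to 0.84, unadjusted p = 0.536, adjusted p = 0.877 by edgeR) became −0.080 without wt replicate 1 and 0.52 without wt replicate 2 (unadjusted p = 0.062 by edgeR).

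Col9a1 is known to be transcribed from an upstream and a downstream start, and the deposited count sums both. The 250 bases before each RefSeq start are shown to place both starts in the genome (GRCm38.p6, plus strand, 5′ to 3′). Neither window held a match to any of the letters searched above, so no base is in capitals:
Col9a1 upstream start, chr1:24177360-24177609: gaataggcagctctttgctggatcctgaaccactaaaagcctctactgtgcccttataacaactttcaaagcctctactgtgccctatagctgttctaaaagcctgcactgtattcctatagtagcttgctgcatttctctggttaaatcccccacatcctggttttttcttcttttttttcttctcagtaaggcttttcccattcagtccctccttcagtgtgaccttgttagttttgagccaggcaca
Col9a1 downstream start, chr1:24194953-24195202: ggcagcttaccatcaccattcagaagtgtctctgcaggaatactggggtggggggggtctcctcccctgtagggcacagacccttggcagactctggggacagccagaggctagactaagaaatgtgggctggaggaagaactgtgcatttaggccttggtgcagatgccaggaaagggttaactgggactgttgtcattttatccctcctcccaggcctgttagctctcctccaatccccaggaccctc
The downstream start lies 17593 bases after the first base counted for Col9a1. The last 16 bases of its window are exonic in the GENCODE transcript Col9a1-202. The windows held 43.6% and 56% G and C, beside a median of 52.4% over all windows.

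Col27a1 (ENSMUSG00000045672, chr4:63214004-63334991, plus strand) measured 375, 239 and 323 CPM in Postn-/- and 202, 342 and 343 CPM in wt. The groups overlapped over most of their range. The log2 fold change was 0.08 (95% interval −0.47 to 0.63, unadjusted p = 0.753, adjusted p = 0.941 by edgeR) and −0.13 without wt replicate 1. The microRNA gene Mir455 lies within Col27a1 and shares no exon base with it.

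**Figure D2:**
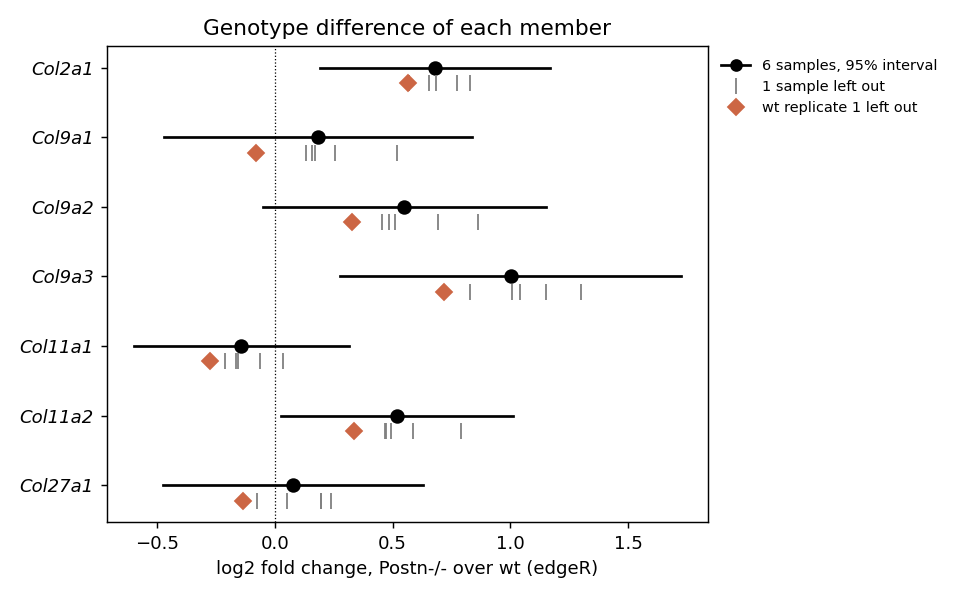
Log2 fold change of each collagen gene, Postn-/- over wt, with its 95% interval from edgeR (black) and the value with each sample left out in turn (grey ticks, diamond for wt replicate 1). Col2a1, Col9a2, Col9a3 and Col11a2 stayed above 0 in all these fits, while Col9a1, Col11a1 and Col27a1 lay on both sides of 0.

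The spread within wt was wide for several of these genes. Among 2915 genes with a mean of at least 64 CPM, the SD of log2 levels in wt was 0.65 for Col9a3, at percentile 96.9, and 0.62 for Col9a1, at percentile 96.4. It was 0.53 for Col9a2 (percentile 94.4) and 0.44 for Col11a2 and Col27a1 (91.7 and 91.6), and the smallest was 0.26 for Col2a1, at percentile 79.8. The median gene had an SD of 0.14 in wt and 0.12 in Postn-/-. In Postn-/- the SD of Col9a1 was 0.13 and that of Col11a2 0.13, near the median gene, whereas Col9a3 was at 0.32 and Col27a1 at 0.33. wt replicate 1 had the lowest level of 6 of the 7 genes among the 6 samples. The exception was Col11a1, for which Postn-/- replicate 2 (4243 CPM) and wt replicate 1 (4245 CPM) were lowest and nearly equal. The mean centred profile of the 7 genes was 0.34, −0.02 and 0.35 in Postn-/- and −0.70, 0.20 and −0.17 in wt on the log2 scale. Across all 6 samples, the genes outside the 7 whose levels were most like it by Pearson's r were Atp11b (0.997), Nf2 (0.996), Mapre3 (0.994), Bsn (0.992), Mgea5 (0.991), Zyg11b (0.989), Trib1 (0.987), Xkr6 (0.987), Fgfr1op2 (0.986) and Npepps (0.984). Of 14526 genes, 343 had an r of at least 0.9. The mean profile was furthest from 0 in wt replicate 1, and r was not recomputed without that sample.

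The proportions of the genes to each other were compared within each sample as ratios of length-scaled levels. The 8 ratios were compared with an exact two-sided permutation test, for which 3 samples against 3 allow no p below 0.1. In 6 of the 8 ratios the groups did not overlap (exact p = 0.1 each, 0.133 after Benjamini-Hochberg adjustment over the 8). Across all pairs of the 2915 genes at 64 CPM or more, 13.5% of ratios were apart in this way. Each ratio kept its sign without wt replicate 1, where the smallest possible p is 0.2.

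The ratio of Col11a1 to Col2a1 was 0.207, 0.193 and 0.167 in Postn-/- and 0.319, 0.340 and 0.332 in wt. All Postn-/- samples were lower, with a log2 difference of −0.81 (exact p = 0.1), and of −0.83 without wt replicate 1. Ratios to Col2a1 were lower in all Postn-/- samples for 79.4% of 2914 genes, so this separation was shared with most genes. The ratio of Col27a1 to Col2a1 was 0.0109, 0.00805 and 0.00823 in Postn-/- and 0.0113, 0.0133 and 0.0165 in wt, with a log2 difference of −0.59 (exact p = 0.1; −0.72 without wt replicate 1). Col11a2 and Col2a1 differed less in their ratio, which was 0.0250, 0.0251 and 0.0223 in Postn-/- and 0.0235, 0.0300 and 0.0257 in wt (log2 difference −0.12, exact p = 0.4; −0.21 without wt replicate 1 and −0.029 without wt replicate 2). The sum of the 3 Col9 genes was 0.282, 0.263 and 0.260 of Col2a1 in Postn-/- and 0.222, 0.364 and 0.323 in wt (log2 difference −0.14, exact p = 0.6; −0.35 without wt replicate 1 and 0.0043 without wt replicate 2). For both of these ratios the groups overlapped, with wt replicate 1 below most or all Postn-/- samples and wt replicate 2 above them.

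Between the chains of collagen XI, the ratio of Col11a1 to Col11a2 was 8.29, 7.67 and 7.50 in Postn-/- and 13.6, 11.3 and 12.9 in wt. It was lower in every Postn-/- sample by 0.69 on the log2 scale (exact p = 0.1), and by 0.63 without wt replicate 1. Of 2914 genes, 44.3% had a ratio to Col11a2 that was lower in all Postn-/- samples, and 7.45% had a ratio to Col11a1 that was higher.

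Between the chains of collagen IX, Col9a1 to Col9a3 was 1.60, 1.71 and 1.25 in Postn-/- and 2.76, 2.69 and 2.44 in wt, a log2 difference of −0.80 (exact p = 0.1; −0.77 without wt replicate 1). Col9a1 to Col9a2 was 8.45, 10.1 and 8.46 in Postn-/- and 10.2, 11.7 and 12.0 in wt, a log2 difference of −0.33 (exact p = 0.1; −0.40 without wt replicate 1), with Postn-/- replicate 2 just below wt replicate 1. Col9a2 to Col9a3 was 0.189, 0.169 and 0.148 in Postn-/- and 0.269, 0.231 and 0.204 in wt, a log2 difference of −0.47 (exact p = 0.1; −0.37 without wt replicate 1). The Postn-/- samples thus held less Col9a1 and Col9a2 per Col9a3 transcript than any wt sample. A lower ratio to Col9a3 in all Postn-/- samples was found for 82.4% of 2914 genes. A higher ratio to Col9a1 in all Postn-/- samples was rarer, with 8 of the 2914 genes (0.275%). Named after their values were seen, these were Col9a2, Col9a3, Col11a2, Col6a2, Chad, Hipk1, Stbd1 and Rps3a3. The share of 0.275% depends on Col9a1 itself, whose centred log2 level was −0.79 in wt replicate 1 and 0.45 in wt replicate 2. A gene at an even level in all samples has its highest ratio to Col9a1 in wt replicate 1, so its groups cannot separate in this direction. The count was not repeated without wt replicate 1. Ratios that share a gene are not independent of each other.

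**Figure D3:**
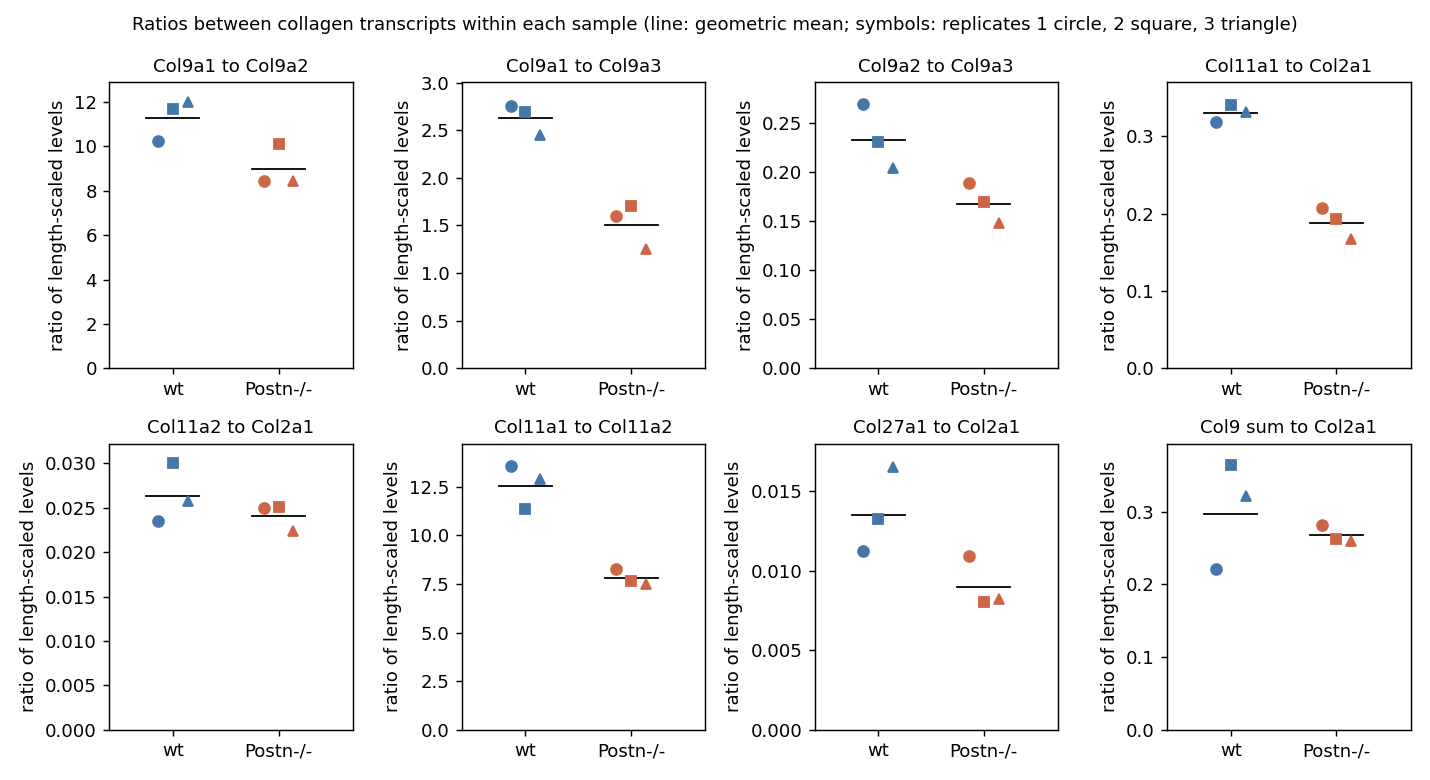
Ratios between length-scaled levels of the collagen transcripts within each sample, on axes that start at 0. Points are single samples, lines are geometric means, and in 6 of the 8 panels all Postn-/- points are below all wt points, the exceptions being Col11a2 and the Col9 sum relative to Col2a1.

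Genes that act on these collagens were counted in lists, which were chosen with earlier results of these data known. No gene of any list reached an adjusted p of 0.05, so the counts below are at an unadjusted p of at most 0.05, where 574 of the 14533 genes (3.95%) were higher and 342 (2.35%) lower in Postn-/-.

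Of 9 tested transcription regulators of cartilage collagen genes, 2 were called as higher and none as lower, with and without wt replicate 1, and the median log2 fold change was −0.10 (−0.04 without it). Sox9, the main activator, measured 528, 381 and 440 CPM in Postn-/- and 323, 417 and 413 CPM in wt. Its groups overlapped, and its log2 fold change of 0.23 had an unadjusted p of 0.198 by edgeR and was 0.11 without wt replicate 1. Its partners Sox5 and Sox6 had log2 fold changes of −0.25 and −0.03 (unadjusted p = 0.197 and 0.798 by edgeR), and −0.06 and −0.11 without that sample. The 2 called were Runx1, a runt-domain factor (14.4, 14 and 8.91 CPM in Postn-/-, 5.69, 7.96 and 8.34 CPM in wt, log2 fold change 0.76, or 0.61 without wt replicate 1), and Zfp219, a known SOX9 partner (6.71, 6.63 and 5.10 CPM in Postn-/-, 3.88, 4.52 and 3.21 CPM in wt, log2 fold change 0.67 in both fits).

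Of 19 genes of procollagen folding and modification, 2 were called as higher and the median was 0.06 (1 and 0.02 without wt replicate 1). Plod2, a lysyl hydroxylase, was at 1265, 1003 and 1184 CPM in Postn-/- and 718, 909 and 901 CPM in wt (log2 fold change 0.45, unadjusted p = 0.0175 by edgeR, or 0.35 and 0.0508 without wt replicate 1). P3h3, of the prolyl 3-hydroxylase family, had a log2 fold change of 0.44 (unadjusted p = 0.0372 by edgeR, or 0.56 and 0.0171 without wt replicate 1). The most abundant genes of the list per exon length, the collagen chaperone Serpinh1 and the disulfide isomerase P4hb, had log2 fold changes of −0.22 and 0.11 with overlapping samples, and −0.22 and 0.06 without wt replicate 1. Of 9 genes of procollagen export none was called in either fit, and the median was −0.13 (−0.06 without wt replicate 1). Among them Sec23a, a coat component of transport vesicles, was at 519, 478 and 499 CPM in Postn-/- and 642, 564 and 554 CPM in wt, all lower in Postn-/- (log2 fold change −0.24, unadjusted p = 0.070 by edgeR, or −0.17 and 0.184 without wt replicate 1). The coat component Sec13 had a log2 fold change of −0.16 (−0.04 without it). Of 12 genes of propeptide removal and crosslinking none was called in either fit, and the median was 0.13, which became 0.33 without wt replicate 1. Pcolce, an enhancer of propeptide removal, and the crosslinking enzyme Loxl4 had log2 fold changes of 0.02 and −0.20, and of 0.56 and −0.40 without that sample, with overlapping groups when all samples were used.

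Of 13 matrix partners of the fibrils, 1 was called as higher with and without wt replicate 1, and the median was 0.04 (−0.02 without it). This was Chad, a collagen-binding leucine-rich repeat protein, at 1270, 991 and 1066 CPM in Postn-/- and 524, 688 and 865 CPM in wt (log2 fold change 0.68, unadjusted p = 0.00908 by edgeR, or 0.51 and 0.0199 without wt replicate 1). Comp and Matn1, the most abundant, had log2 fold changes of 0.27 and −0.27, and of 0.03 and −0.22 without wt replicate 1. Of 11 collagen receptors and degrading proteins, 1 was higher and 1 lower with and without wt replicate 1, with medians of 0.14 and 0.12. Mrc2, the uptake receptor for collagen fragments, was at 77.4, 85.8 and 68.1 CPM in Postn-/- and 52.3, 43.2 and 48.1 CPM in wt (log2 fold change 0.69, unadjusted p = 6.0e-04 by edgeR, and 0.76 without wt replicate 1). Itga10, the α chain of a collagen II-binding integrin of chondrocytes, was at 16.0, 14.9 and 16.7 CPM in Postn-/- and 26.0, 27.4 and 24.8 CPM in wt (log2 fold change −0.72, unadjusted p = 2.88e-04, adjusted p = 0.597 by edgeR, and −0.72 without wt replicate 1). The collagen II-cleaving enzyme Mmp13 ranged from 439 to 4309 CPM in Postn-/- and from 897 to 4163 CPM in wt (log2 fold change −0.17, and −0.54 without wt replicate 1). The collagen-degrading cathepsin Ctsk had a log2 fold change of 0.14 (0.22 without it).

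Other collagen genes were compared with the 7. Of 33 tested of 37, 5 were called as higher and none as lower (4 and none without wt replicate 1), the median log2 fold change was 0.30 (0.29 without it), and 26 were above 0. Col6a1, of the pericellular microfibrils, was at 2394, 2349 and 2130 CPM in Postn-/- and 1128, 1988 and 1512 CPM in wt (log2 fold change 0.57, unadjusted p = 0.0261 by edgeR, or 0.39 and 0.0586 without wt replicate 1). Col6a2 had a log2 fold change of 0.89 (0.64 without wt replicate 1), and the basement membrane genes Col4a1 and Col4a2 had 0.81 and 0.74 (0.92 and 1.04). The fibril-associated Col14a1 had 1.02 (0.85), at 3.94, 4.27 and 3.38 CPM in Postn-/- and 1.42, 1.85 and 2.44 CPM in wt. The hypertrophic collagen Col10a1 was at 1177, 1610 and 1392 CPM in Postn-/- and 213, 1076 and 1185 CPM in wt, and Postn-/- replicate 1 lay just below wt replicate 3 (log2 fold change 0.76, and 0.30 without wt replicate 1).

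**Figure D4:**
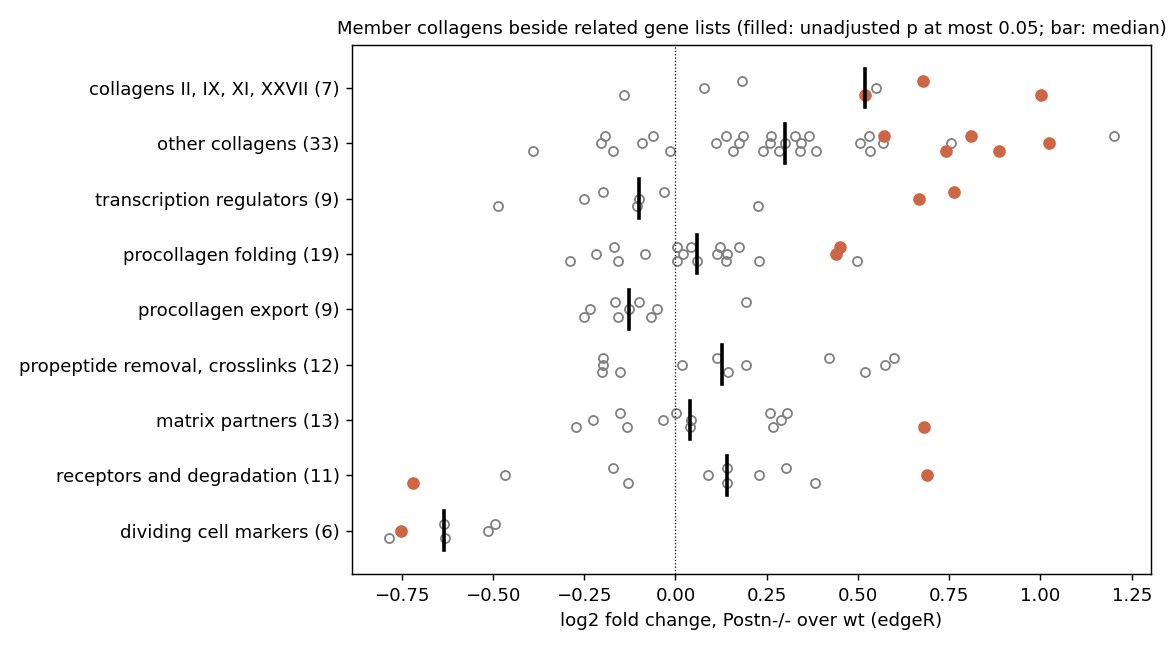
Log2 fold change, Postn-/- over wt, of each tested gene in the 7 cartilage collagens, the other collagens, the lists of genes acting on them and the dividing cell markers, with the number tested in brackets. Points are genes, filled at an unadjusted p of at most 0.05, and bars are medians, which were 0.52 for the 7 collagens, 0.30 for the other collagens and between −0.13 and 0.14 for the lists acting on them.

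Markers of other cells and states were set beside the collagens. Of the 10 chondrocyte markers, 4 had a log2 fold change above 0, and the median was −0.09 (−0.12 without wt replicate 1). Chad was called as higher, and without that sample Epyc was also called, as lower. Cnmd, which with Comp had the highest length-scaled level, measured 4693, 3542 and 4702 CPM in Postn-/- and 5071, 4968 and 5781 CPM in wt, so every Postn-/- sample was lower (log2 fold change −0.29, unadjusted p = 0.132 by edgeR, and −0.32 without wt replicate 1). Hypertrophic markers, with Spp1 and Col10a1 at the highest levels, summed to 4343 to 12789 CPM in Postn-/- and 3425 to 10497 CPM in wt. None of the 6 was called and the median was −0.28, whereas without wt replicate 1 Panx3 and Alpl were called as lower and the median was −0.71. Fibroblast markers, with Col1a1 and Col1a2 highest, summed to 1152 to 2854 CPM in Postn-/- and 1417 to 4131 CPM in wt, with none of 6 tested called in either fit (median 0.11, and 0.26 without wt replicate 1). Osteoblast markers, with Sp7 and Bglap highest, summed to 144 to 192 CPM in Postn-/- and 137 to 178 CPM in wt, with none of 4 called in either fit. Macrophage and osteoclast markers, with Cd68 and Acp5 highest, summed to 42.3 to 45.5 CPM in Postn-/- and 28.8 to 48.5 CPM in wt. None of the 4 tested was called with all samples, and Cd68 was called as higher without wt replicate 1 (log2 fold change 0.56, and 1.05 without it). Endothelial markers (Pecam1 and Kdr highest), muscle markers (Acta1 and Myh4 highest), adipocyte and erythroid markers summed to at most 8.39, 18.4, 1.04 and 0.524 CPM in any sample, and Hba-a2 was at 0 counts in all 6. Among them Acta1 was lower in all Postn-/- samples (log2 fold change −1.30, unadjusted p = 0.0152 by edgeR, and −1.62 without wt replicate 1). Dividing cell markers summed to 208, 389 and 153 CPM in Postn-/- and 552, 328 and 328 CPM in wt, highest in wt replicate 1. All 6 had a log2 fold change below 0 with a median of −0.63, which became −0.34 without wt replicate 1. Top2a and Cdk1, the highest in level, had log2 fold changes of −0.79 and −0.63 (−0.48 and −0.25 without it). Ccnb1 was the 1 gene called (unadjusted p = 0.0467 by edgeR), and none was called without wt replicate 1. The part of the markers in the collagen differences was not tested.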

How the data were processed

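Chondrocyte RNA from 3 Postn-/- and 3 wt samples was amplified with the SMARTer Ultra Low RNA kit and sequenced as 50-base single-end reads, so counts can include PCR copies. The authors aligned the reads to Ensembl release 76 with STAR 2.0.4b and deposited, for each gene, the raw count of uniquely aligned unambiguous reads from featureCounts 1.4.5. The authors also deposited CPM and RPKM, which were used only to check the counts. The submitters' processing notes list mm9, whereas the deposited gene positions of the 7 genes equal those of GENCODE M21 on GRCm38, which supplied gene names (40340 of 41388 identifiers, 97.47%). The strand setting of the counting is not given in the sources used here.

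Following the study's methods, the test was limited to genes that exceeded 1 CPM in 2 or more samples and excluded rRNA genes. The files held 355 rRNA genes, most of them below the filter on low counts. In all 14533 genes were tested, against 14537 with rRNA genes kept. edgeR 4.0.16 in R 4.3.3 compared Postn-/- with wt by the quasi-likelihood test after TMM normalization, without covariates, with Benjamini-Hochberg adjustment over all tested genes. Adjusted p-values for genes are from this model unless another fit is named, and those for the ratios are adjusted over the 8 exact tests. Standard errors and 95% intervals for genes were derived from the log2 fold change and the F statistic of the edgeR test, which does not report them. Only the edgeR fit was tested on simulated counts, and the ratios, overlap counts and gene lists were not. No pair of samples agreed within sampling noise (chi-square per degree of freedom 36.5 to 110). Read counts without molecular identifiers are not independent molecules, so the value of 3 counts covers counting error only.

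Named genes were the 7 collagens, Postn, Sox9, Sox5, Sox6 and, from each list, genes with an adjusted p of at most 0.05, the 2 highest in length-scaled level, and up to 3 with the smallest unadjusted p of at most 0.05 and groups that did not overlap, plus the 10 genes most like the mean profile. The members and lists were chosen with earlier results of these data known. Col4a2, Ccnb1, Epyc, Panx3, Alpl, Hba-a2 and the genes with a higher ratio to Col9a1 were named after their values were seen. Promoter sequences were taken from RefSeq (GRCm38.p6), with exons from GENCODE M21. Alternatives used limma 3.58.1, sva 3.50.0 and DESeq2 1.42.0.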

Additional observations from a re-analysis of the deposited data

How the results depend on the processing

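The 7 collagens and Postn were recomputed with DESeq2's Wald test, with voomWithQualityWeights without and with 2 surrogate variables, with DESeq2's size factors, upper quartile scaling and scaling without the 7 genes, with other filters on low counts, with a robust fit, and with each sample left out, and the 8 ratios with each sample left out, with samples paired by number and as ratios of group means. No collagen reached an adjusted p of 0.05 in any of these fits, and the lowest was 0.187, for Col9a3 with surrogate variables. Col2a1, Col9a2, Col9a3, Col11a2 and Postn kept their direction in all 17 alternatives. Col27a1 changed sign to −0.019 with voomWithQualityWeights, to −0.073 without Postn-/- replicate 1 and to −0.13 without wt replicate 1 (−0.13 to 0.24 with single samples left out). Col9a1 ranged from −0.080 (without wt replicate 1) to 0.52 (without wt replicate 2), and Col11a1 from −0.28 to 0.036 (0.036 without wt replicate 2). The log2 ratio of the Col9 sum to Col2a1 ranged from −0.35 to 0.0043, the latter without wt replicate 2, and the other 7 ratios kept their sign, that of Col11a2 to Col2a1 between −0.21 and −0.029. The cause was not tested. The number of collagens at an unadjusted p of at most 0.05 was 4 with DESeq2, both voom fits and no filter, when Col9a2 was added, where 6.01%, 9.2%, 13.7% and 5.24% of all genes were called, beside 6.3%. It ranged from 1 (without wt replicate 3, 6.14% of all genes) to 4 (without Postn-/- replicate 2 or wt replicate 2, 7.73% and 8.71%) with single samples left out. The number with groups that did not overlap ranged from 2 to 5, with 4 without Postn-/- replicate 2 and 5 without wt replicate 2, all higher in Postn-/-. With 5 samples, groups that do not overlap are more common over all genes, at 26.7% and 27.2% in these sets (13% and 14.7% higher in Postn-/-) and 19.3% to 25.9% in the other 4, beside 13.6% with 6 samples. The numbers of genes at this p were 1337 and 1997 with voom without and with surrogate variables, 1797 without the filter and 425 without Postn-/- replicate 3, beside 916. At the adjusted threshold, 11 genes were called with DESeq2, 9 without the filter, 4 with surrogate variables, 1 with upper quartile scaling or voom alone, 0 with the filter set to all 6 samples (806 at an unadjusted p of at most 0.05) and 1 or 2 with single samples left out, beside 2. Same-numbered samples share only a number. Their deviations from the group mean correlated at 0.0824, 0.155 and 0.143, and every sample correlated best with its own number. This comes from the data and not the design. With 3 samples a group few matchings are possible, so it cannot show pairing. With the replicate number as a block, Col2a1 was at 0.69, Col9a3 at 1.07 and Col11a2 at 0.56, 1188 genes were at an unadjusted p of at most 0.05 and 1 at the adjusted threshold, and no call of a collagen changed. The alternatives without wt replicate 1 for the gene lists were added after seeing the data. At 3 samples a group, the exact tests of the ratios cannot pass 0.05, and the 95% intervals of Col9a1, Col11a1 and Col27a1 include differences of 1.24-fold in either direction.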
